A study of Homo sapiens with 2 samples.

Results

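The clustered replication-dependent histone genes supply the histones that package newly copied DNA. RNA was sequenced from TRPV3-OE cells, which are BEAS-2B cells made to overexpress the cation channel gene TRPV3, and from parental BEAS-2B cells (genotype WT in the labels), an immortalised human bronchial epithelial line. The comparison asked which transcripts differ between the 2 lines, with 1 library per group, both made from total RNA of cells snap frozen once confluent. TRPV3-OE cells were at passage 4 to 8 and parental cells at passage 20 to 30, so TRPV3 level and passage cannot be told apart, and the sources used here do not say how the line was made or whether it is 1 clone. The rule that picks the genes uses names and no measured value. All 71 protein-coding genes whose older symbol starts with HIST1, HIST2, HIST3 or HIST4 were taken, out of 58051 annotated genes, and low counts were kept. Of the 71 genes, 55 lie in the HIST1 cluster on chromosome 6, 12 carry HIST2 names and 3 HIST3 names on chromosome 1, and 1, H4C16 (HIST4H4), lies on chromosome 12. They encode 6 linker histones (H1), 17 H2A, 18 H2B, 15 H3 and 15 H4 proteins.

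Core histones H2A, H2B, H3 and H4 form the nucleosome, and H1 binds the DNA between nucleosomes. Most mRNAs of the clustered genes are made in S phase and end in a conserved stem-loop in place of a poly(A) tail. The stem-loop is bound by SLBP, and the mRNAs are cut by a machinery that assembles in the histone locus body around NPAT. Some clustered genes, H1-2, H2AC6, H2BC5, H2BC12 and H2BC21 among them, are also known to make polyadenylated transcripts that run past the stem-loop, above all in cells that leave the cycle or differentiate. A library made from poly(A) RNA would hold mainly such transcripts, and the sources used here do not say how these libraries were made.

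Both libraries were close in depth, with 17477953 counts on genes in TRPV3-OE and 17450658 in parental cells. TRPV3 itself had 54077 counts in TRPV3-OE cells and 26 in parental cells (log2 ratio 10.97). All 8 bronchial epithelial markers were measured, with log2 ratios from -0.41 (TP63) to 0.55 (EPCAM), and their summed level was 7341 CPM (the usual counts-per-million scale) in TRPV3-OE and 7640 CPM in parental cells. Of the immune markers, PTPRC, CD3E and LYZ were at 0 in both libraries. Of 5 fibroblast markers, COL1A1 had 285 counts in TRPV3-OE and 410 in parental cells, and LUM was at 0 in both. Of 4 endothelial markers, CDH5 had 35 counts in TRPV3-OE and 268 (15.6 CPM) in parental cells. PECAM1 went the other way, with 23 in TRPV3-OE and 14 in parental cells. VWF had 0 in TRPV3-OE and 4 in parental cells, and KDR was at 0 in both. The fibroblast markers summed to 16.3 CPM in TRPV3-OE and 24.3 CPM in parental cells, and the endothelial markers to 3.26 CPM in TRPV3-OE and 16.7 CPM in parental cells; the part of other cell types in the histone values was not tested. Each line is represented by 1 library, so differences could not be set against a spread between replicates, and p-values are absent. Intervals are exact 95% intervals that cover counting error only. The reads carry no stated molecular identifiers, so PCR copies cannot be told from separate molecules. The intervals treat each count as separate and are too narrow where copies were counted.

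The upstream sequences of 6 members are shown because their genes carry the results, 5 being at least 2-fold lower in TRPV3-OE cells and H2BC9 being the most abundant member there. They are the 250 bases before the RefSeq start on GRCh38.p14, given 5′ to 3′. Capitals mark the TATA box letters TATAA, read TTATA from the opposite strand, the box CCAAT, read ATTGG from the opposite strand, and the octamer ATTTGCAT, read ATGCAAAT from the opposite strand. A TATAA match and its reverse can overlap. The regions are chr6:26056471-26056720, minus strand for H1-2, chr6:26123922-26124171, plus strand for H2AC6, chr6:26157871-26158120, plus strand for H2BC5, chr6:27146859-27147108, minus strand for H2BC12, chr1:149886683-149886932, minus strand for H2BC21 and chr6:26251364-26251613, plus strand for H2BC9.
H1-2: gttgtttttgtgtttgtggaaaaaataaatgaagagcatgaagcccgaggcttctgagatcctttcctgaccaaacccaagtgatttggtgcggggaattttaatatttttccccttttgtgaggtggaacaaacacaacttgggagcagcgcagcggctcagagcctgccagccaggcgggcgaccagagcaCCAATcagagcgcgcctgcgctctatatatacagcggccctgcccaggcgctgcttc
H2AC6: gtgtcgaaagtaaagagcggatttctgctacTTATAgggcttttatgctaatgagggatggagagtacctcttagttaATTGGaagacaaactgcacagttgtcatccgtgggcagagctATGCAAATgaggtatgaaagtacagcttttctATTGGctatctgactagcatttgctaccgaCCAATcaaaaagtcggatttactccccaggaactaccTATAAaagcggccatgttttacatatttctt
H2BC5: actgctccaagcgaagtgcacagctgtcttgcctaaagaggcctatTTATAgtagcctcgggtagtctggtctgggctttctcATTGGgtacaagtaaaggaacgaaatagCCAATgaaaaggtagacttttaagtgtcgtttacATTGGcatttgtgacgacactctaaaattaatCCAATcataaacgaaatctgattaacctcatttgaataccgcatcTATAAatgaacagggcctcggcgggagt
H2BC12: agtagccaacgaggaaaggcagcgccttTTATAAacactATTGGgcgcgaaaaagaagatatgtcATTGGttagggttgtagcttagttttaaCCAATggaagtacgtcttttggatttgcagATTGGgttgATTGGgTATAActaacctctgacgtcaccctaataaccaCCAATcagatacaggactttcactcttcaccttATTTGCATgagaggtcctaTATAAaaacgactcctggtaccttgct
H2BC21: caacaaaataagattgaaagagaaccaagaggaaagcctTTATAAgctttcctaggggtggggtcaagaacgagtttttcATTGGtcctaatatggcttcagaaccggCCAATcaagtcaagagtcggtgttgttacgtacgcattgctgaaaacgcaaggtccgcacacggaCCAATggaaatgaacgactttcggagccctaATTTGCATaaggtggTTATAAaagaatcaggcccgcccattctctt
H2BC9: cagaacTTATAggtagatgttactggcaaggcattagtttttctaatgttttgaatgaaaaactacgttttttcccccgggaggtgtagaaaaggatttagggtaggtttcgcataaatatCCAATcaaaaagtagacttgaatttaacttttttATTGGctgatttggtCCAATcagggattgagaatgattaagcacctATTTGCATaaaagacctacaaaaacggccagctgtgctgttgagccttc

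The H2B octamer, the site of the POU factor Oct-1 in H2B promoters, lay 46 bases before the start of H2BC21 and of H2BC12 and 49 bases before that of H2BC9, each on the gene's own strand. H2BC5 and H1-2 held no match to these 8 letters in this window. RefSeq held a promoter for 66 of the 71 members. The octamer was present in 14 of 18 H2B promoters (77.8%) and 11 of 16 H2A promoters (68.8%), in 0 of 6 H1 and 0 of 13 H4 promoters, and in 1.66% of all 27305 promoters of the same length. TATAA occurred in 61 of the 66 member promoters (92.4%), against 19.6% of all promoters. CCAAT occurred in 56 of 66 (84.8%), against 33.0% of all, and was found in 3 of 13 H4 promoters. Of the 10 genes found at least 2-fold lower in TRPV3-OE cells, 6 held the octamer, as did 3 of the 4 others with at least 20 counts. These are counts of promoters, not of separate sites, since divergent genes can share a site. H2BC4 with H2AC6, H2BC11 with H2AC11 and H2BC21 with H2AC20 each shared theirs. A match is a description of letters, not of a bound site.

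Annotated transcripts (GENCODE 29) held a stem-loop of 6 paired bases around a loop of 4 in 31 of the 71 members, in 5 forms. The other 40 have no such sequence in their annotated transcripts, which for many members stop at the coding sequence. The forms are printed once each with a member that holds them, with the paired stem in capitals.
H2AC6: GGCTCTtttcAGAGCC
H2BC4: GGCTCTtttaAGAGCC
H3C6: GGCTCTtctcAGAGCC
H4C8: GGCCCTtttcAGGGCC
H4C9: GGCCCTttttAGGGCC
The first form was shared by 6 H2A, 8 H2B and 3 H3 genes, and both forms with a stem opening on GGCCCT were found in H4 genes alone, 5 and 3 of them. In 22 members an annotated transcript ran more than 100 bases past a stem-loop match. The largest such distance was 1128 bases in H2AC6, 1640 in H2BC9, 1655 in H4C8 and 1729 in H2BC21.

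Clustered histone transcripts were rare in both libraries and rarer in TRPV3-OE cells. The 71 genes together had 431 counts in the TRPV3-OE library and 937 in the parental library. That is 24.2 CPM (22.0 to 26.6) in TRPV3-OE and 54.7 CPM (51.3 to 58.3) in parental cells, a 2.26-fold lower sum with a log2 ratio of -1.18 (-1.34 to -1.01). In bulk RNA, fewer cells in S phase and less histone RNA per cell cannot be told apart. The sums made up 0.00247% of all counts in TRPV3-OE and 0.00537% in parental cells. A count was recorded for 48 members in TRPV3-OE and 50 in parental cells, and 16 members had none in either library, where a count of 0, with 3 counts taken as the limit it allows, leaves up to 0.168 CPM in TRPV3-OE and 0.175 CPM in parental cells. Other RNAs that carry no poly(A) tail also had few counts. Reads that map to several places or overlap several genes were left out by default, so a count of 0 need not mean an absent RNA. Of 11 listed, 9 were at 0 in both libraries, among them the abundant nuclear RNA RN7SK, while RN7SL2 had 64 counts in TRPV3-OE and 26 in parental cells, and SNORD3A had 8 in TRPV3-OE and 3 in parental cells. The part of library preparation in the histone values was not tested.

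The difference was uneven across members. A member was called when the ratio exceeded 2-fold in either direction with an interval that left out 1. Of the 3 members whose counts reached 100 in the combined libraries, 2 were called lower and 0 higher, where 5.35% of 11466 genes were called lower and 5.31% higher. Among the 14 members with at least 20 summed counts, 10 were lower and 0 higher, against 6.76% lower and 7.85% higher among 13931 genes. Among the 3717 genes with 20 to 234 summed counts, the range these members span, 12.9% were lower and 18.8% higher. The 14 had a median log2 ratio of -2.54, beside -0.01 over all genes with at least 20 counts and 0.14 over those with 20 to 234. These counts describe members that passed a minimum, and 6 of the 10 had fewer than 10 counts in TRPV3-OE, so that they passed through the parental library. Of the 8 members with at least 10 counts in each library, 4 were lower, namely H1-2, H2AC6, H2BC11 and H2BC12, and 0 higher. Under that minimum 5.45% of 13163 genes were lower and 6.23% higher. The remaining 57 members, none above 15 counts in a library, together had 125 counts in TRPV3-OE and 164 in parental cells (log2 ratio -0.45, -0.80 to -0.10). Without the 10 called members, a set chosen by these values, the other 61 genes had 326 counts in TRPV3-OE and 288 in parental cells (0.12, -0.11 to 0.36).

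**Figure D1:**
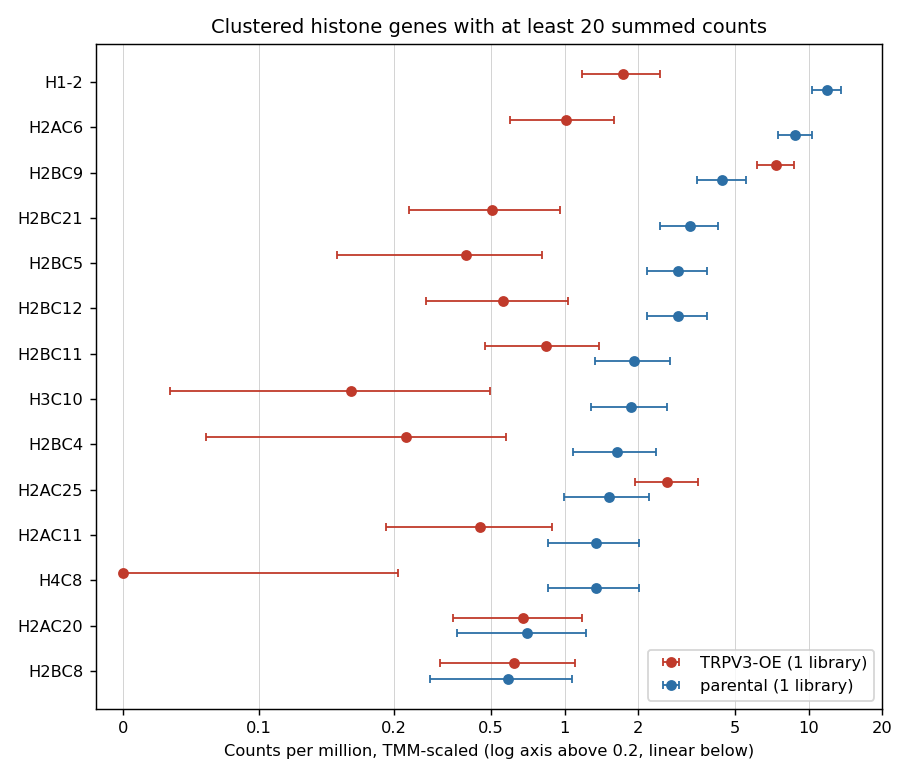
Level of the 14 clustered histone genes with at least 20 summed counts, in CPM (log axis above 0.2), with exact 95% Poisson intervals, in 1 TRPV3-OE and 1 parental library. The TRPV3-OE point lies left of the parental point for 10 genes whose ratio passes 2-fold, and right of it for H2BC9 (7.36 CPM in TRPV3-OE, 4.44 CPM in parental cells) and H2AC25 (2.64 CPM in TRPV3-OE, 1.52 CPM in parental cells).

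H1-2 (ENSG00000187837, chromosome 6, 26055787 to 26056428, minus strand, GRCh38), a linker histone, had 31 counts in TRPV3-OE and 203 in parental cells. That is 1.74 CPM in TRPV3-OE against 11.9 CPM in parental cells, 6.81-fold lower (log2 ratio -2.77, -3.36 to -2.22). It was the most abundant member in parental cells by counts and by level per kilobase of annotated exon, at 2.71 CPM per kilobase in TRPV3-OE and 18.5 in parental cells. The gene model in the files spans 642 bases and is unique in all its windows of 50 bases, meaning that each is found in no other annotated transcript. The other linker histone genes did not share this difference. H1-1, H1-3, H1-4, H1-5 and the testis gene H1-6 together had 19 counts in TRPV3-OE and 13 in parental cells (log2 ratio 0.49, -0.60 to 1.63), an interval that lies apart from that of H1-2. H1-5 had 9 counts in TRPV3-OE and 5 in parental cells, H1-4 had 6 in TRPV3-OE and 4 in parental cells, and H1-6 had none in either. H1-1 had 2 counts in TRPV3-OE and 0 in parental cells. H1-3 went the other way, with 2 in TRPV3-OE and 4 in parental cells (-1.06, -4.52 to 1.75). The interval of H1-3 held the ratio of H1-2, so its counts are too few to say whether it shared the difference.

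H2AC6 (ENSG00000180573, chromosome 6, 26124145 to 26139116, plus strand), which encodes a core H2A, had 18 counts in TRPV3-OE and 151 in parental cells. Its level was 1.01 CPM in TRPV3-OE against 8.82 CPM in parental cells, 8.72-fold lower (-3.12, -3.92 to -2.42). H2BC4, which starts 219 bases away on the opposite strand, was also lower, with 4 counts in TRPV3-OE and 28 in parental cells (-2.86, -4.84 to -1.35). The 2 genes share 245 of the 250 upstream bases printed for H2AC6, and their ratios had overlapping intervals. H2AC11 and H2BC11 form another divergent pair, with starts 292 bases apart and 247 shared upstream bases. H2AC11 had 8 counts in TRPV3-OE and 23 in parental cells (-1.58, -2.95 to -0.37), and H2BC11 had 15 in TRPV3-OE and 33 in parental cells (-1.19, -2.18 to -0.27).

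A divergent pair in the HIST2 cluster did not move as one. H2BC21 (ENSG00000184678, chromosome 1, 149884459 to 149886652, minus strand), a core H2B gene with a long polyadenylated form, had 9 counts in TRPV3-OE and 56 in parental cells, 6.47-fold lower (-2.69, -3.90 to -1.67). H2AC20 (chromosome 1, 149886975 to 149887364, plus strand), whose start lies 323 bases from that of H2BC21, had 12 counts in each library (-0.06, -1.34 to 1.23). The 2 intervals did not overlap, although the genes share 235 of the 250 bases printed for H2BC21. The annotated exons differ in length, 2194 bases for H2BC21 and 390 for H2AC20, and 91.9% of the windows of 50 bases were unique in H2BC21 and 69.5% in H2AC20. The only other divergent pairs with at least 20 counts in each gene, H2BC4 with H2AC6 and H2BC11 with H2AC11, had overlapping intervals. Among pairs with fewer counts, H2BC12 (-2.38, -3.52 to -1.38) and H2AC12 (1.94, -1.39 to 7.57) had intervals that barely overlapped. H2AC12 had 4 counts in TRPV3-OE and 1 in parental cells. Elsewhere in the same cluster, the transcribed pseudogene H2BC20P, which is no member, had 74 counts in TRPV3-OE and 76 in parental cells.

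Among the other H2B genes, some were lower and H2BC9 was higher. H2BC5 had 7 counts in TRPV3-OE and 50 in parental cells, 7.43-fold lower (-2.89, -4.28 to -1.74). H2BC12 had 10 counts in TRPV3-OE and 50 in parental cells (-2.38, -3.52 to -1.38), but 25.9% of its windows were unique among annotated transcripts, so its counts are uncertain. H2BC9 (ENSG00000275713, chromosome 6, 26251651 to 26253710, plus strand) went the other way, with 131 counts in TRPV3-OE and 76 in parental cells. Its level was 7.36 CPM in TRPV3-OE against 4.44 CPM in parental cells, 1.66-fold higher (0.73, 0.31 to 1.16), above 1 beyond counting error but short of 2-fold. In TRPV3-OE cells H2BC9 alone held more counts than the other 17 H2B genes together, 131 against 77. Those 17 genes, a set chosen by these values, had 77 counts in TRPV3-OE and 258 in parental cells (-1.80, -2.19 to -1.43). H2BC8 had 11 counts in TRPV3-OE and 10 in parental cells (0.08, -1.29 to 1.47). H2AC25 (HIST3H2A), on the long arm of chromosome 1, had 47 counts in TRPV3-OE and 26 in parental cells (0.80, 0.08 to 1.55), 1.74-fold higher and likewise not called.

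Genes for H3 and H4, the most conserved histones, were mostly close to the limit of detection. H3C10, the one H3 gene with at least 20 summed counts, had 3 counts in TRPV3-OE and 32 in parental cells (-3.47, -5.82 to -1.79). H4C8 had 0 counts in TRPV3-OE and 23 in parental cells, at least 7.97-fold lower when 3 counts are taken as the floor of the TRPV3-OE library, and the exact interval of its log2 ratio lay below -2.58. The other 14 H4 genes, a set chosen by these values, had 36 counts in TRPV3-OE and 39 in parental cells (-0.17, -0.87 to 0.52). H3C8 had 1 count in TRPV3-OE and 15 in parental cells (-3.96, -9.36 to -1.26), and H3C6 had 3 in TRPV3-OE and 15 in parental cells (-2.38, -4.81 to -0.56). These 2 genes, named after their values were seen, also met the 2-fold rule. With them 12 of the 55 members with any count were lower and 0 higher, where 4.9% of the 22863 genes with any count were lower and 5.89% higher.

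**Figure D2:**
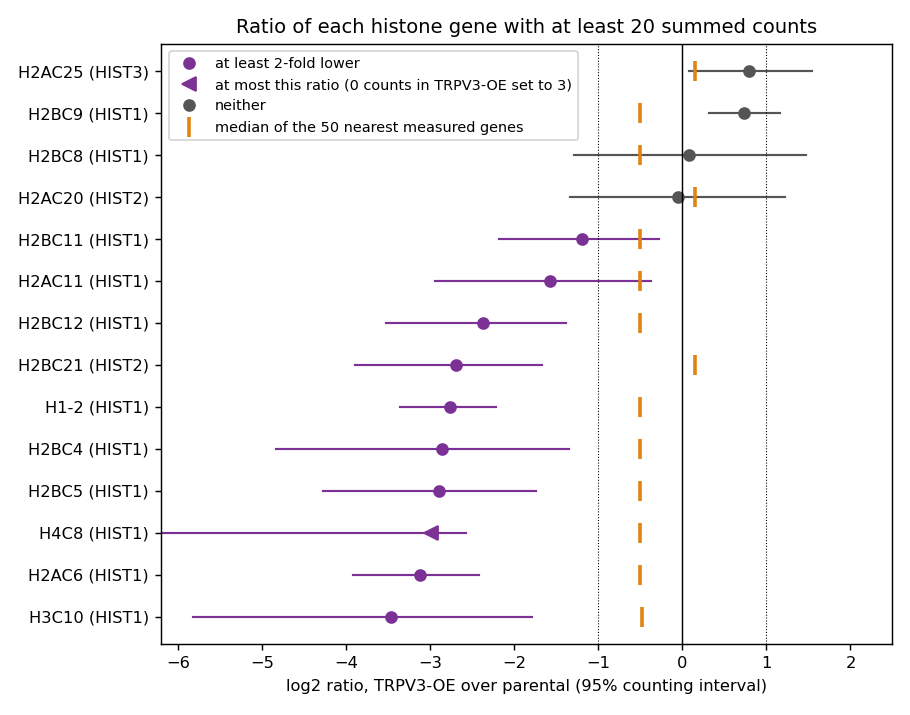
Log2 ratio of TRPV3-OE over parental for the same 14 genes, with exact 95% intervals for counting error. Dotted lines mark 2-fold, orange ticks the median of the 50 nearest measured genes, and the arrow the bound for H4C8 (0 counts in TRPV3-OE, 23 in parental cells). In all, 10 genes lie left of the 2-fold line and 0 right of it.

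By family, H1 had 50 counts in TRPV3-OE and 216 in parental cells, the largest difference of the 5 families (4.49-fold lower, log2 ratio -2.17, -2.64 to -1.72). H2A had 104 counts in TRPV3-OE and 237 in parental cells (-1.24, -1.59 to -0.91). H2B had 208 in TRPV3-OE and 334 in parental cells (-0.74, -0.996 to -0.49). H3 had 33 counts in TRPV3-OE and 88 in parental cells (-1.47, -2.09 to -0.88), and H4 had 36 in TRPV3-OE and 62 in parental cells (-0.84, -1.48 to -0.23). Of these intervals, that of H1 lay apart from those of H2A, H2B and H4 and overlapped that of H3. Without H1-2 the H1 interval held 0, and without H4C8 the H4 interval did, both genes being picked by these values. Of the H2A counts, H2AC6 alone held 18 in TRPV3-OE and 151 in parental cells, the whole difference in H2A counts. H3C10, H3C8 and H3C6 held 3, 1 and 3 of the H3 counts in TRPV3-OE and 32, 15 and 15 in parental cells. These H3 genes likewise made up the whole difference in H3 counts.

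**Figure D3:**
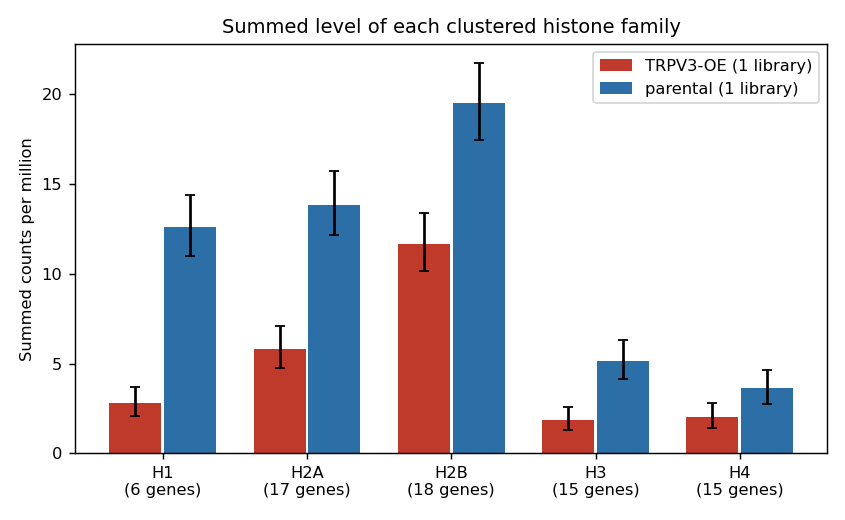
Summed CPM of each histone family, over all its clustered genes, in 1 TRPV3-OE (left bar) and 1 parental library (right bar), with exact 95% Poisson intervals. All 5 sums were lower in TRPV3-OE cells, from 2.81 CPM in TRPV3-OE against 12.6 CPM in parental cells for H1 to 11.7 CPM in TRPV3-OE against 19.5 CPM in parental cells for H2B.

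Some other genes inside the HIST1 cluster were lower as well. The HIST1 cluster (chromosome 6, 25726132 to 27893843) had 347 counts in TRPV3-OE and 832 in parental cells (-1.32, -1.50 to -1.14). Among the 15 other genes measured inside its span, 5 were called lower and 0 higher, beside 5.35% lower and 5.31% higher among all measured genes. The median of the 15 genes was -0.73 on the log2 scale, and they ranged from -1.99 to 0.18. The 5 were the butyrophilin genes BTN3A1 (-1.41), BTN3A2 (-1.08) and BTN3A3 (-1.99), the pseudogene BTN2A3P (-1.32) and the noncoding RNA HCG11 (-1.32). On the flanks, the replication licensing inhibitor gene GMNN had a ratio of -0.69 and CARMIL1 -0.49 on one side, and ZNF165 had -0.19 and ZSCAN16 0.55 on the other. The 50 measured genes nearest to HIST1 members, other genes inside the cluster included, had a median of -0.50. After that median was subtracted, H1-2 stood at -2.27, H2AC6 at -2.62, H2BC5 at -2.39 and H2BC9 at 1.23. The sum of all members, each less its own local median, stood at -0.79 (-0.94 to -0.63) in place of -1.18. The interval of this sum was computed on rescaled counts, so it is not exact and leaves out error in the medians. Of the 10 called members, 8 kept their call after subtraction. H2BC11, at -0.69, no longer passed 2-fold, and the interval of H2AC11, at -1.08, then held 0 (-2.45 to 0.13).

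On chromosome 1 the genes around H2BC21 did not move with it. The 50 genes nearest to H2BC21 had a median of 0.15, and BOLA1, inside the cluster, had 140 counts in TRPV3-OE and 133 in parental cells. Next to the cluster, SV2A, a synaptic vesicle protein gene, had a ratio of 0.52, the splicing factor gene SF3B4 0.06, NBPF9 0.06 and NBPF19 0.24. The members of HIST2 together had 25 counts in TRPV3-OE and 69 in parental cells (-1.52, -2.24 to -0.84). Of these, H2BC21 alone held 9 in TRPV3-OE and 56 in parental cells. HIST3 had 47 counts in TRPV3-OE and 29 in parental cells (0.64, -0.06 to 1.36), between TRIM11 at 0.34 and IBA57 at -0.71 on one side and RNF187 at 0.07 and RAB4A at 0.38 on the other. H4C16, the lone HIST4 gene, had 12 counts in TRPV3-OE and 7 in parental cells (0.72, -0.74 to 2.31), with ATF7IP at -0.08, EMP1 at -0.47, H2AJ at -0.21 and WBP11 at -0.05 beside it.

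**Figure D4:**
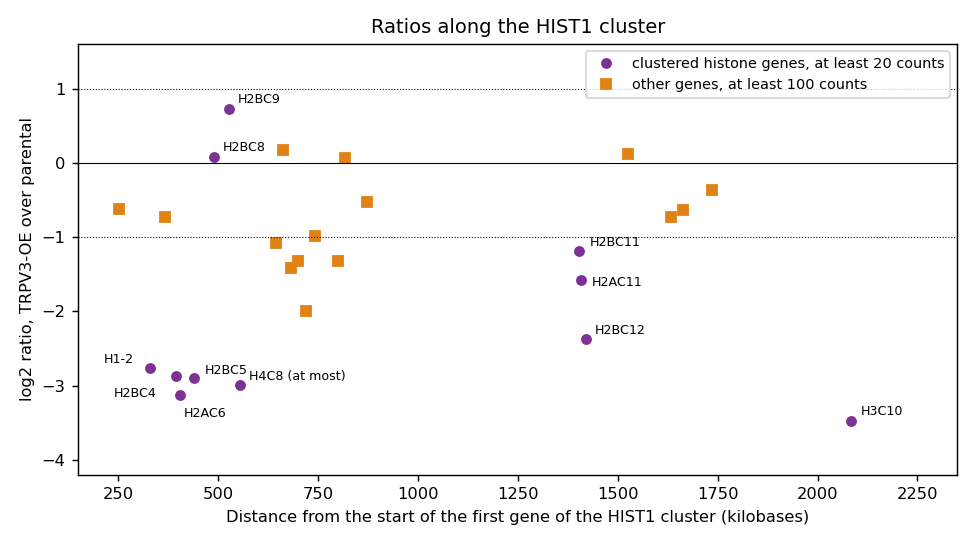
Log2 ratio of TRPV3-OE over parental along the HIST1 cluster, against distance in kilobases from the first gene of the cluster, for histone genes with at least 20 summed counts and other genes with at least 100. Of the histone genes 9 lie below the lower 2-fold line and H2BC8 and H2BC9 at or above 0, while the 15 other genes run from -1.99 to 0.18.

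Members of every class of transcript model were lower in sum in TRPV3-OE cells. The 21 genes with annotated exons over 1000 bases had 218 counts in TRPV3-OE and 441 in parental cells (-1.07, -1.31 to -0.84), and the 50 shorter ones had 213 in TRPV3-OE and 496 in parental cells (-1.28, -1.51 to -1.04), with overlapping intervals. The 22 genes annotated more than 100 bases past the stem-loop had 261 counts in TRPV3-OE and 472 in parental cells (-0.91, -1.13 to -0.69). The 9 genes annotated to end within 100 bases of it had 23 in TRPV3-OE and 73 in parental cells (-1.72, -2.47 to -1.03). The 40 with no stem-loop of the searched form in their model had 147 in TRPV3-OE and 392 in parental cells (-1.47, -1.75 to -1.19). The interval of the 22 genes, H2BC9 among them, lay apart from that of the 40 and overlapped that of the 9. Single genes weighed heavily in these sums. H1-2 alone held 31 counts in TRPV3-OE and 203 in parental cells of the 40, and H2BC5 7 and 50 of the 9. The part of transcript class apart from such genes was not tested. Of the 71 genes, 17 had fewer than 50% of their windows unique, and 10 of these were among the 16 with no count.

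Genes that process, carry and replace these histones stayed under 2-fold. In the list of histone pre-mRNA processing and histone locus body genes, 0 of 20 measured genes passed 2-fold in either direction (median log2 ratio -0.03). POU2F1, which encodes Oct-1, had 704 counts in TRPV3-OE and 396 in parental cells (0.77), and the cleavage complex subunit gene CPSF2 had 2424 in TRPV3-OE and 3477 in parental cells (-0.58). LSM10, of the U7 snRNP, had 392 counts in TRPV3-OE and 531 in parental cells (-0.49), and CASP8AP2, which encodes the histone locus body protein FLASH, had 1463 in TRPV3-OE and 1017 in parental cells (0.47). SLBP, outside the naming rule and given as the stem-loop binder, had 2165 counts in TRPV3-OE and 2331 in parental cells (-0.16).

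The histone mRNA decay list had 0 of 15 genes past 2-fold (median 0.03). Its largest ratios were those of the uridylyltransferase gene TUT4 (0.90), of LSM2 (-0.79) and LSM6 (-0.76) of the ring that binds the mRNA end, and of the exosome nuclease gene EXOSC10 (-0.41). Histone chaperones had 0 of 20 past 2-fold (median -0.12), with RBBP7 at -0.86, NAP1L4 at -0.70, DAXX, which deposits H3.3, at -0.44 and SSRP1 of the FACT complex at -0.34. Among 20 S-phase genes, 0 passed 2-fold in either direction (median -0.15). MCM5, of the replicative helicase, had 2174 counts in TRPV3-OE and 3018 in parental cells (-0.53), and the DNA primase gene PRIM1 had 1536 in TRPV3-OE and 934 in parental cells (0.66). POLA1, of DNA polymerase alpha, had 810 counts in TRPV3-OE and 1279 in parental cells (-0.72), and the thymidine kinase gene TK1 had 3130 in TRPV3-OE and 4516 in parental cells (-0.59).

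The listed histone genes outside the clusters, most of whose mRNAs carry poly(A) tails and are made outside S phase too, summed to 2037 CPM in TRPV3-OE and 2767 CPM in parental cells. Of 11 such genes 0 passed 2-fold (median -0.26). H2AZ1 had 6340 counts in TRPV3-OE and 10594 in parental cells (-0.80), and H2AX, the variant phosphorylated at DNA breaks, which also makes a stem-loop mRNA, had 2308 in TRPV3-OE and 3789 in parental cells (-0.77). H3-3B, an H3.3 gene, had 8302 in TRPV3-OE and 13145 in parental cells (-0.72), and CENPA, the centromeric H3, had 653 in TRPV3-OE and 888 in parental cells (-0.50).

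**Figure D5:**
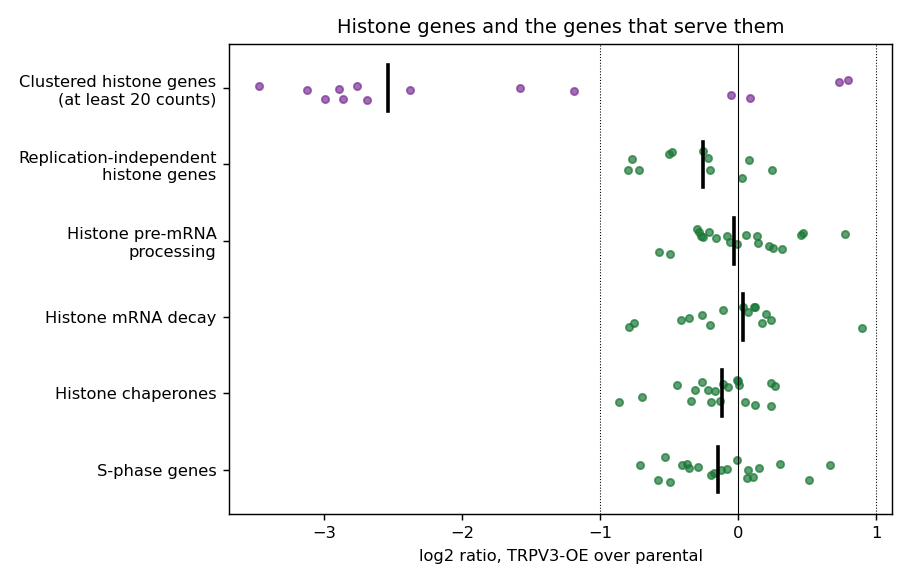
Log2 ratio of TRPV3-OE over parental for 14 clustered histone genes with at least 20 summed counts (H4C8 at its bound) and for the measured genes of 5 lists, with the median of each as a black bar and 2-fold as dotted lines. The clustered genes spread from -3.47 to 0.80 around a median of -2.54, and 0 genes of the 5 other lists cross a 2-fold line. Depth is unlike, since list genes have at least 100 summed counts and the clustered genes at most 234. Of all genes with 20 to 234 counts, 12.9% were called lower and 18.8% higher. Of those with at least 100, 5.35% were lower and 5.31% higher.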

How the data were processed

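The deposited values are raw read counts per gene that the authors made with featureCounts 1.5.0-p3, per the file headers. Reads were counted on the strand opposite to the gene, over Ensembl 87 models on GRCh38.p7, with no option for multi-mapping or overlapping reads, per the file headers, so by default such reads were left out, which lowers near-identical histone genes. Per the submitters' processing notes, STAR and DESeq2 were among the tools, with no version given. Cells were grown in LHC-9 on coated plates, per the labels' protocols.

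Members were found by GENCODE 29 names. Current symbols came from a gene name table or RefSeq. Libraries were scaled with TMM (edgeR 4.0.16, R 4.3.3; factors 1.02 for TRPV3-OE and 0.981 for parental), and 1 count equals 0.0562 CPM in TRPV3-OE and 0.0584 CPM in parental cells. No model was fitted, with 1 library per group. Level intervals are Poisson, and ratio intervals are conditional binomial (Clopper-Pearson). Measured genes have at least 100 summed counts. All members with at least 20 summed counts are named, and for each list up to 4 genes with the largest absolute log2 ratio. Local medians use the 50 nearest measured genes that are not members, and genes inside the cluster spans are among them. Uniqueness is the share of windows of 50 bases found in no other GENCODE transcript. The members, lists and tests were chosen with earlier results of these data known. The calculation was tested on simulated data. Figures were drawn with matplotlib 3.10.9, and the intervals were computed with scipy 1.17.1 and pandas 2.3.3 in Python 3.11.15.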

Additional observations from a re-analysis of the deposited data

How the results depend on the processing

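No paired analysis was possible because the 2 groups hold 1 sample each, which also leaves no replicate to drop. Of 56 other values for the 14 named histone genes, 55 stayed within their interval, and H2BC9 moved to 1.23 after the median of the nearest genes was subtracted. Scaling by total counts, DESeq2 1.42.0 size factors or upper quartile shifted the median of measured genes by at most 0.0582 and moved no histone value past its interval, while it put the median of the epithelial markers (0.13) at 0.18, 0.17 and 0.19. Subtraction of the nearest genes brought the sums to -0.79 for all members, -1.67 for H1, -0.27 for H2B and -0.82 for HIST1, and the number of higher members to 1, H2BC9. That number was also 1 at 1.5-fold. The number of lower members was 2 at the minimum of 100 counts, 10 at 20 counts or between 20 and 234, and 12 at 1 count, where the median was -1.06 in place of -2.77, since more genes qualify. No member reaches 500 counts. All genes higher and lower (609 and 614) became 1347 and 1121 at 1 count, 1094 and 942 at 20, 245 and 323 at 500, 1455 and 1627 at 1.5-fold, and 151 and 159 at 4-fold. Chosen after the data were seen, the count range and the removal of genes gave a histone sum of -0.67 without H1-2 and H2AC6 and of 0.12 without the 10 called genes, which removes the lower genes by construction. With low counts included, the endothelial median became -1.17 at 20 counts and the fibroblast median 0.18 at 1 count, from other genes in the lists. A gene with 20 counts split evenly has an interval over 1 log2 unit on each side, so smaller differences in most members were not detectable at this depth.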

Other observations

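Among the 41 members with 1 to 19 summed counts, 15 had more counts in TRPV3-OE, 22 had fewer and 4 had equal numbers. Of the 19 genes with HIST names that are pseudogenes and so no members, H2BC20P alone had more than 4 summed counts.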
